A study of Caenorhabditis elegans with 2 samples.

Results

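The genes described here carry the symbols abu, pqn, idpa, idpb and idpc, and were chosen as every nuclear protein-coding gene of the Ensembl annotation whose symbol starts with 1 of those 5 prefixes. The rule found 85 genes of 19973. The pqn family held 56, abu 14, idpc 7, idpb 5 and idpa 3. Binding of PHA-4 was measured by chromatin immunoprecipitation and sequencing (ChIP-seq) in whole Caenorhabditis elegans of strain RW12220, in which the pha-4 gene on chromosome V carries a TY1, EGFP and 3xFLAG tag inserted by CRISPR. The worms were L4 larvae aged 48 h, synchronised by starving L1 larvae after bleaching, and their chromatin was sheared by sonication to 200 to 800 bp. The 2 biological replicates form 1 group, so no condition could be compared. The sample descriptions give anti-GFP for the precipitation, and the field for the antibody gives pha-4. Control reads were not analysed here.

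PHA-4 is the FoxA forkhead factor that specifies the pharynx, the pumping foregut of the worm, and it also acts in the intestine and other tissues. The pharyngeal lumen is lined by a flexible cuticle that is rebuilt at each moult, and the cells around the lumen secrete its proteins. The abu genes were named for being activated when the unfolded protein response is blocked, and many encode cuticle proteins rich in glutamine, asparagine and cysteine. The idp genes encode intrinsically disordered proteins of the same cuticle, whereas the pqn class was named only for prion-like stretches of glutamine and asparagine and also holds genes with other roles.

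The protein sequences, translated from the genome, showed how far the families differ. Glutamine and asparagine together made up a median of 31.8% of residues in abu proteins, 23.0% in pqn, 2.78% in idpc, 4.27% in idpb and 2.76% in idpa, beside 8.54% over all genes. Cysteine had a median of 13.3% in abu, 0.928% in pqn and 23.0% in idpb, beside 1.82% over all genes. Cysteine in pqn ran from 0% to 16.5%, so some pqn proteins resemble abu. The pqn-57 and abu-9 proteins both hold 31.5% glutamine and asparagine and 13.5% cysteine. The idpa proteins had a median glycine content of 52.8% and the idpc proteins a median proline content of 19.7%. The label of prion-like composition therefore describes abu and pqn by this measure, and does not describe the 3 idp families. Within pqn the glutamine and asparagine content ran from 5.33% in pqn-68, annotated as a D-aminoacyl-tRNA deacylase, to 42.4% in pqn-88.

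The sequences at 4 member summits show the kinds of site that passed a threshold. Those of pqn-51, pqn-27 and idpc-1 are from the main list, made from both replicates. The idpc-3 summit passed in replicate 2 alone. A summit is the highest point of a peak, and each line holds 101 bases centred on it, read from the RefSeq genome of WBcel235, the build named ce11 by the authors, on the strand of the gene. The pqn-51 site is V:5049467-5049567 (plus strand) and the pqn-27 site is II:13460828-13460928 (minus strand), both intergenic and upstream of the gene. The idpc-1 site is III:11427646-11427746 (plus strand) and the idpc-3 site is V:9628754-9628854 (minus strand), both inside the coding exon. Capitals would mark a match to the PHA-4 consensus TRTTKRY on either strand, and none of the 4 holds one.
pqn-51 summit: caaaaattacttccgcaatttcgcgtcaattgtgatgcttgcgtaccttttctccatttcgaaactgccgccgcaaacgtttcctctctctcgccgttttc
pqn-27 summit: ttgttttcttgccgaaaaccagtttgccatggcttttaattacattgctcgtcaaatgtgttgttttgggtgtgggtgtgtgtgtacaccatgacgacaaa
idpc-1 summit: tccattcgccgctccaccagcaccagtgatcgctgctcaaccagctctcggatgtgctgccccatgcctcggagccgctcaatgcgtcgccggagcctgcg
idpc-3 summit: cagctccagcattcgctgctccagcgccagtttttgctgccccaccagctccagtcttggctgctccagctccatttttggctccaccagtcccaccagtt

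The GC content of these stretches was 46.5% at pqn-51, 41.6% at pqn-27, 66.3% at idpc-1 and 59.4% at idpc-3. The consensus was present within 50 bp of 24.3% of all 2920 nuclear peaks of the main list.

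A promoter was taken as 1000 bp upstream to 500 bp downstream of the gene start, and a gene was counted when a summit lay there. In the main list, made from both replicates, 7 of 85 members had a promoter summit (8.24%), beside 7.15% of all protein-coding genes. The 7 were pqn-21, pqn-27, pqn-39, pqn-51, pqn-59, pqn-70 and idpc-1. No abu gene of 14, no idpa gene of 3 and no idpb gene of 5 had one. The members' share is near that of all genes and is not a result about the members. In whole worms the pharynx is a small part, and binding in few cells cannot be told apart from weak binding in many.

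The other thresholded lists gave 3 members in the stricter list from both replicates (3.53%, beside 4.15% of all genes), 6 in replicate 1 (7.06%, beside 5.53%) and 6 in replicate 2 (7.06%, beside 3.85%). In both replicate lists 4 members had a promoter summit (4.71%, beside 2.47% of all genes), namely pqn-27, pqn-51, pqn-59 and pqn-71. The pqn-71 summits lie within 250 bp of tRNA genes. In any of the 4 lists 9 members had one (10.6%, beside 8.40% of all genes). The count was 0 of 14 for abu, and 14 genes are too few to set that 0 apart from the share of all genes.

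The strongest promoter summit of the main list belonged to pqn-51, a gene whose summit also lies in the promoter window of K11D12.14. Its signal, the peak caller's own value with a scale set per list, was 244 in the main list, 151 in replicate 1 and 96.3 in replicate 2. The main summit lay at -90 bp, where negative distances are upstream of the start, and 90.2% of main-list peaks were weaker. Its promoter stood at the 99.0 percentile of all genes in replicate 1 and the 99.2 percentile in replicate 2.

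The gene pqn-59 encodes a stress granule protein and reads away from taf-4, which encodes a subunit of the general transcription factor TFIID. Its summit had a signal of 169 in the main list, 89.6 in replicate 1 and 65.4 in replicate 2. The summit at -593 bp from pqn-59 lies nearer to the start of taf-4, at -331 bp. A weaker main-list peak of 77.1 lay in a coding exon of pqn-59, at 1171 bp.

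The gene pqn-39 encodes a PCI domain protein, and its summit at -955 bp (X, position 13969631) lay near the edge of the window. Its signal was 143 in the main list and 71.8 in replicate 1, and replicate 2 held no candidate in the window. Of the 3 members in the stricter list, it is the 1 without a promoter candidate in replicate 2. The pqn-27 gene had its main summit of 112 at -236 bp (II, position 13460878) and a second of 66.1 at 280 bp in a coding exon. Replicate 1 placed its thresholded summit upstream, at -272 bp, and replicate 2 placed it in the coding exon, at 286 bp.

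The remaining 3 were weaker. The pqn-70 summit of 97.5 lay at -224 bp (V, position 11228927), with 75.1 in replicate 1 and only an unthresholded 27.7 in replicate 2. The pqn-21 summit of 76.9 lay at -85 bp and is shared with the window of cye-1, the gene of cyclin E. The gene itself is annotated as a C2H2-type protein. The idpc-1 summit of 53.7 lay at 490 bp (III, position 11427696), near the downstream edge of the window, and only 6.13% of main-list peaks were weaker. The thresholded replicate 2 list held it with 47.8 at 451 bp, and replicate 1 did not. The pooled reads gave idpc-1 a stronger candidate of 63.7 at -134 bp, with a −log10 of the irreproducible discovery rate of 1.97, just under the threshold of 2.

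The gene pqn-71 had the strongest promoter summit of any member in each replicate list, and none in the main list. Its window held a summit of 272 in replicate 1, at -550 bp, and of 100 in replicate 2, at -454 bp. The replicate 1 summit lies inside a tRNA gene, and both summits lie within 250 bp of a pair of tRNA genes. The strongest candidate of the pooled reads in that window had a signal of 44.5. The window is shared with rocf-1.

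Over the gene bodies, 7 members had a main-list summit (8.24%), beside 4.88% of all genes. They were pqn-27, pqn-41, pqn-48, pqn-59, pqn-84, pqn-87 and idpc-1. The stricter list gave 2 (2.35%, beside 2.39%), replicate 1 gave 2 (2.35%, beside 3.56%) and replicate 2 gave 8 (9.41%, beside 3.02%). The median gene length was 1900 bp over the members and 2027 bp over all genes. The pqn family, which held 6 of the 7 main-list genes, had a median of 3214 bp. The part of gene length in these counts was not tested.

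The gene pqn-41 encodes a polyglutamine-repeat protein known from the death of the male linker cell, and it held the strongest member peak of the main and replicate 2 lists. Its 33613 bp lie at III:1905958-1939570. Of its 5 main-list summits, all in introns between 15361 and 20656 bp from the start, the signals were 512, 151, 289, 422 and 336. The strongest exceeded 98.9% of main-list peaks. In replicate 1 the 4 summits had signals of 179, 99.3, 188 and 187.

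**Figure D1:**
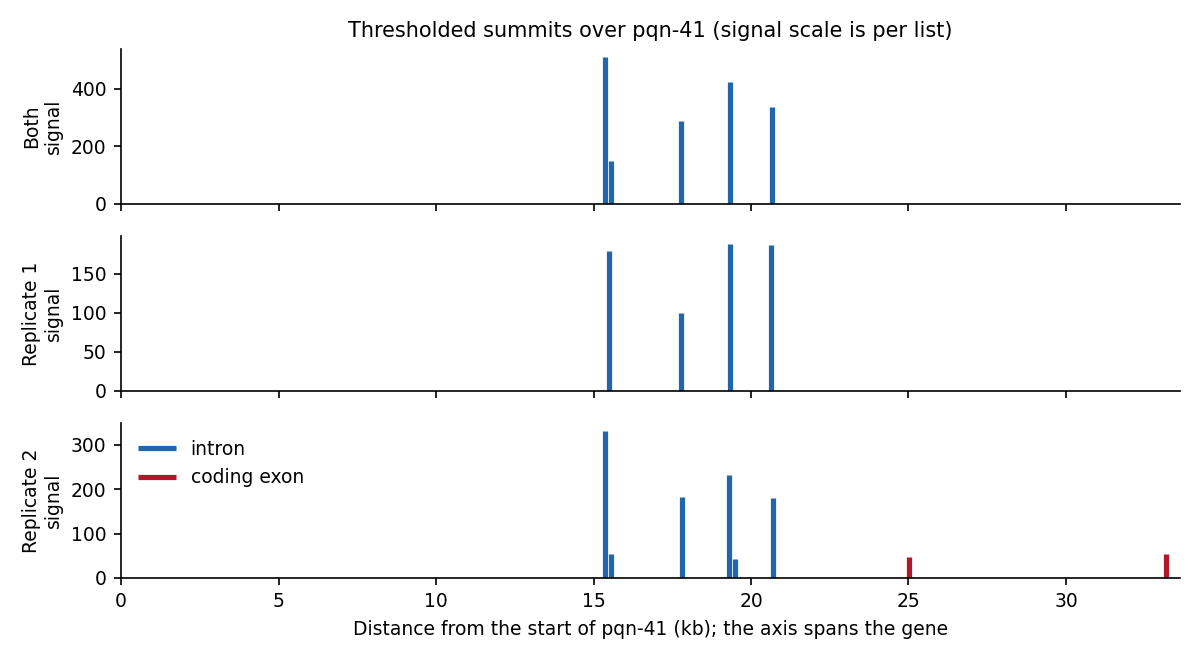
Thresholded summits over pqn-41 by distance from the gene start (kb, x axis) and signal (y axis, scale per list), in the list from both replicates and in each replicate. The 5 main-list summits lie in introns between 15361 and 20656 bp, and replicate 2 adds 2 coding-exon summits.

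In replicate 2 the strongest pqn-41 summit was 332, at 15370 bp, and 2 weaker summits of 48.0 and 53.0 lay in coding exons. Every 31-base word of the 5597 bp that span the main-list peaks occurs once in the nuclear genome. The promoter of pqn-41 itself held only an unthresholded candidate of 53.5.

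Among the other gene-body summits, pqn-84, which encodes a galectin, had 111 in the main list and 109 in replicate 2, in an intron at 1756 and 1784 bp. The pqn-87 summit of 87.0, in a MATH domain gene, lies in an intron that also holds a pseudogene. The pqn-48 summit of 75.3 is intronic. The pqn-18 summit of 68.3 was in replicate 1 alone and the pqn-42 summit of 55.3 in replicate 2 alone, both in introns. The gene pqn-75, which encodes a proline-rich protein of the pharyngeal glands, had a summit of 76.6 in a coding exon in replicate 2 alone.

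The ranked lists hold every candidate peak before the threshold, so they order genes that the thresholded lists leave out. A candidate promoter summit was present for 55 members in the list of pooled reads (64.7%, beside 52% of all genes), for 51 in replicate 1 (60.0%, beside 57.2%) and for 48 in replicate 2 (56.5%, beside 44.5%). Over the gene the counts were 52 (61.2%, beside 49.5%), 45 (52.9%, beside 53.9%) and 52 (61.2%, beside 46.8%). The median percentile of the strongest promoter signal was 59.8 in the pooled list, 50.6 in replicate 1 and 66.1 in replicate 2. Over all genes the median lies at the middle rank in the pooled and replicate 1 lists by construction, and at 27.7 in replicate 2, where most genes have no candidate. A gene with no candidate holds the tied rank of 24.0, 21.4 or 27.7.

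**Figure D2:**
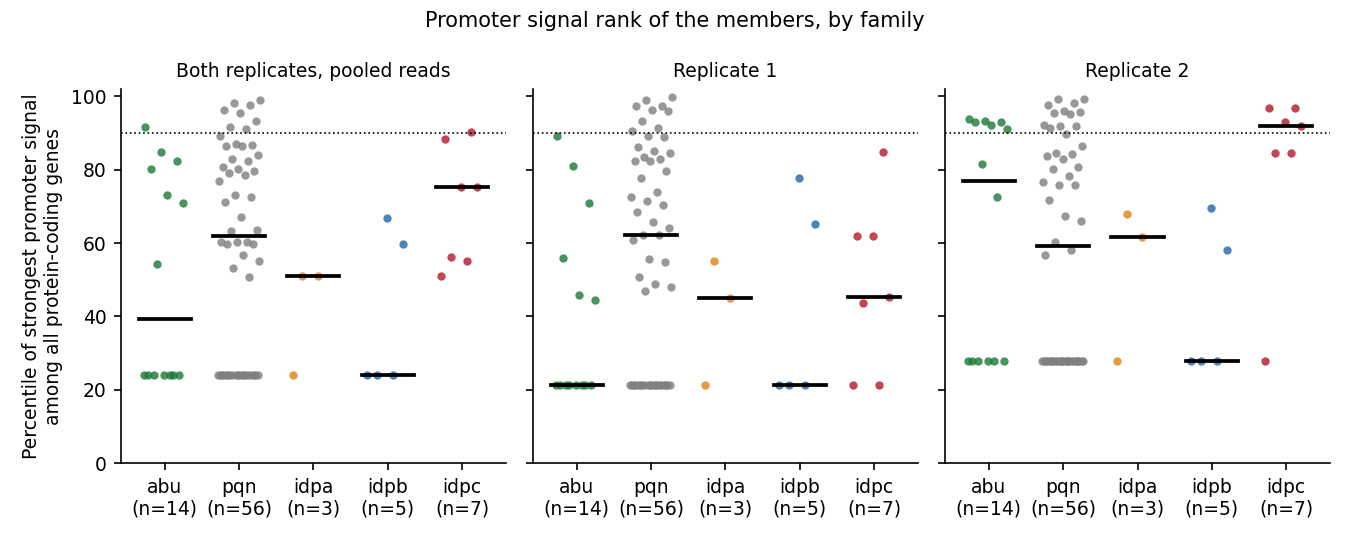
Percentile of the strongest promoter signal of each member among all 19973 genes (y axis) by family (x axis) in the pooled, replicate 1 and replicate 2 ranked lists, with bars at the medians and a dotted line at 90. The abu median is 21.4 in replicate 1, the tied rank of genes with no candidate, and 77.0 in replicate 2. The idpc median is 45.4 and 91.9. Points in the lowest row have no candidate.

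The abu and idpc families ranked differently in the replicates. The abu median was 21.4 in replicate 1 and 77.0 in replicate 2, and that of idpc was 45.4 and 91.9. The abu value of 21.4 is the tied rank of genes with no candidate. A promoter candidate was present for 6 of 14 abu genes in replicate 1 and for 8 in replicate 2. The pqn medians were close, at 62.1 and 59.2. Of the 14 abu genes, 6 were in the top 10% of all genes in replicate 2 and 0 in replicate 1. Of the 7 idpc genes, 4 were in the top 10% in replicate 2 and 0 in replicate 1. For pqn the counts were 12 and 9 of 56. The members' signals in the 2 replicates had a Spearman correlation of 0.44 over 85 genes, beside 0.53 over all genes, which share libraries and base composition and carry no test.

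**Figure D3:**
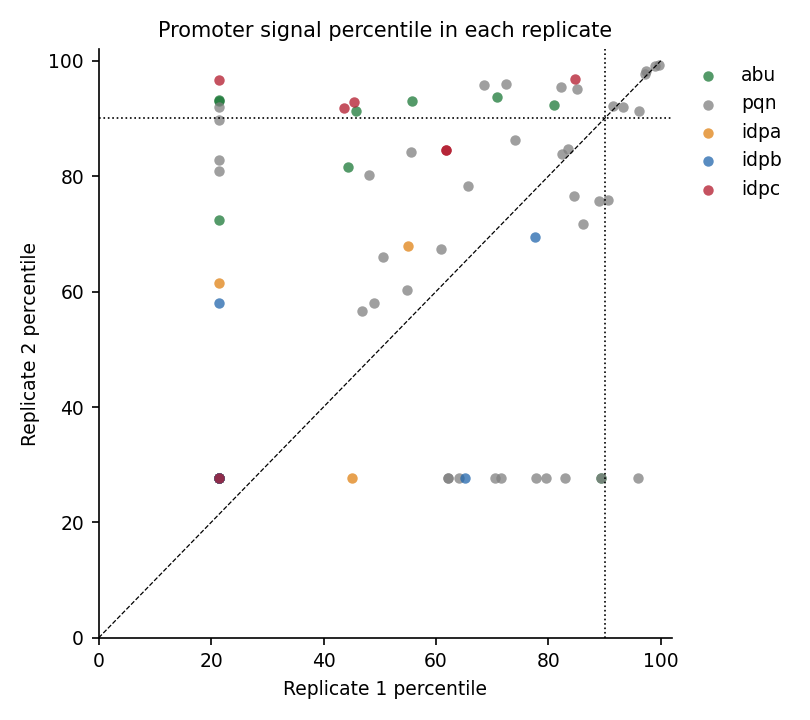
Percentile of the strongest promoter signal in replicate 1 (x axis) against replicate 2 (y axis) for each member, coloured by family, with dotted lines at 90 and points overlapping where genes have no candidate. No abu or idpc point lies right of 90 in replicate 1, and 6 abu and 4 idpc points lie above 90 in replicate 2.

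The position of the candidates differed as well. In replicate 2 all 6 idpc genes with a promoter candidate had the strongest one downstream of the start and in a coding exon, at a median of 392 bp. In replicate 1 it was 2 of 5 idpc genes. For abu, 4 of 8 lay in a coding exon in replicate 2 and 0 of 6 in replicate 1. Over all genes the share in a coding exon was 20.3% in replicate 2 and 12.9% in replicate 1.

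**Figure D4:**
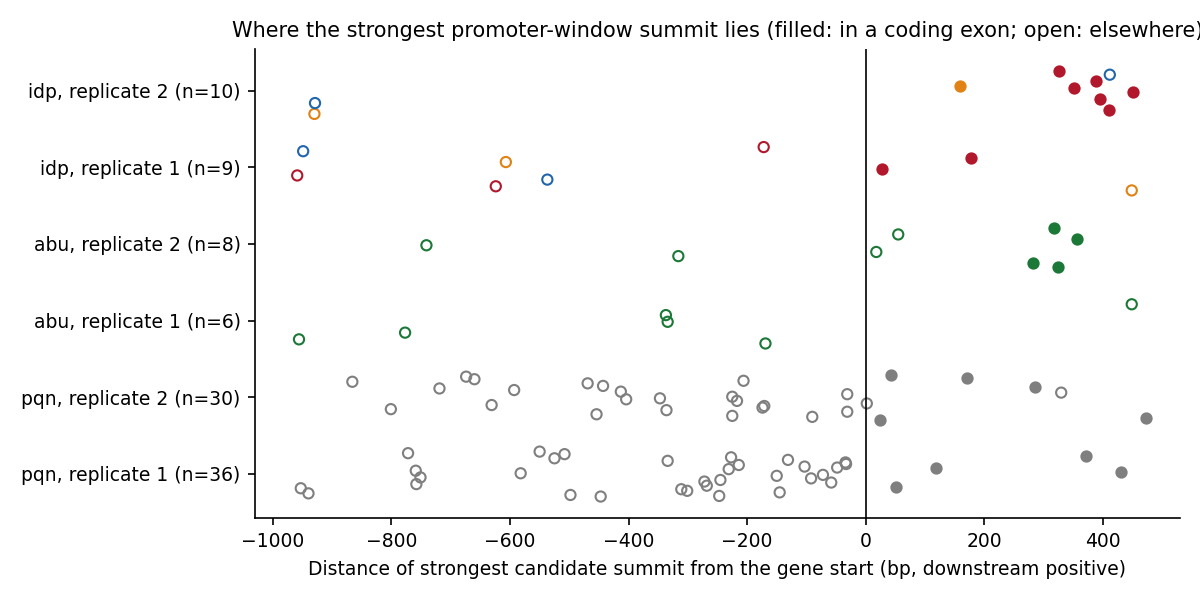
Distance of the strongest candidate summit in the promoter window from the gene start (bp, x axis) for the members with one, by family group and replicate (y axis), filled where the summit lies in a coding exon. In replicate 2 the 6 idpc points and 4 of 8 abu points are filled, and in replicate 1 they are 2 of 5 and 0 of 6.

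GC content moved with this difference, and its part in the result was not tested. The median GC within 100 bp of the strongest candidate was 60.2% for idpc in replicate 2 and 46.3% in replicate 1. For abu it was 47.5% and 34.6%, beside 38.3% and 33.3% over all genes. Coding sequence had a median GC of 57.4% in idpc and 49.5% in abu, beside 42.5% over all genes. Over all genes the Spearman correlation of coding GC with promoter signal was 0.29 in replicate 2 and 0.18 in replicate 1, and over the 85 members 0.41 and 0.03. Among the 25% of all genes with the highest coding GC, 18.0% were in the top 10% of replicate 2 and 15.7% in that of replicate 1. Of the 27 abu and idp genes among them, 9 were in the top 10% of replicate 2 and 0 in that of replicate 1.

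The strongest abu promoter candidates of the pooled list were those of abu-8, abu-15, abu-1 and abu-14. The abu-8 summit had a signal of 68.9 in the pooled list, 34.4 in replicate 1 and 29.5 in replicate 2, at -322, -337 and -316 bp, and was the 1 abu summit at a like upstream position in all 3 lists. Its percentiles were 91.7, 81.1 and 92.3. The abu-15 gene had 50.9 in the pooled list and 31.9 in replicate 2, and no candidate in replicate 1. The abu-1 promoter window shows the reverse, with 47.2 in the pooled list, 44.7 in replicate 1 and none in replicate 2. That window is shared with pqn-2, which starts on the opposite strand. The abu-4 gene had a candidate in replicate 2 alone, of 31.4 at 325 bp, and abu-6 likewise, of 14.1 at 357 bp. The abu-10, abu-12 and abu-13 genes had candidates in all 3 lists, with pooled signals of 35.4, 37.2 and 20.5.

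The idpc genes idpc-3 to idpc-7 lie with pqn-63 in a cluster at V:9616031-9629214. Of these 6 genes, 6 had a promoter candidate in the pooled list, 5 in replicate 1 and 6 in replicate 2, and the median percentiles were 75.2, 53.6 and 92.4. In replicate 2 the idpc-3 summit reached the threshold with 47.0 at 410 bp, while idpc-4, idpc-5, idpc-6 and idpc-7 had unthresholded summits of 31.1, 28.8, 20.5 and 20.6 inside the gene. The idpc-2 gene, outside the cluster, had a promoter candidate of 21.2 in the pooled list alone. Over the gene it had a candidate of 25.7 in the pooled list and of 22.6 in replicate 2. The replicate 2 summit of pqn-63, of 40.3, lay upstream at -174 bp. In replicate 1 the strongest summits of idpc-6 and idpc-7 were the same candidate of 22.8 between these genes.

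**Figure D5:**
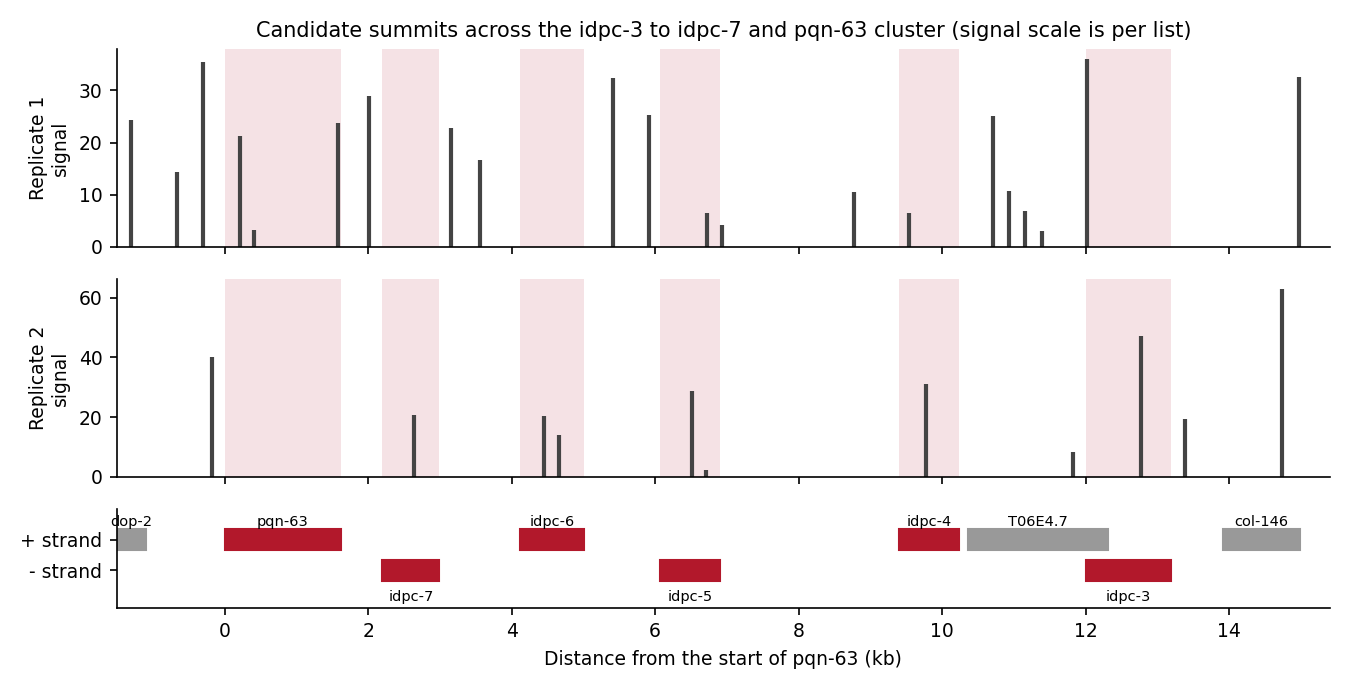
Candidate summits in replicate 1 and replicate 2 by distance from the start of pqn-63 (kb, x axis) and signal (y axis, scale per list), with member genes shaded and drawn by strand below. In replicate 2 the summits at idpc-3 to idpc-7 stand inside the genes, and the pqn-63 summit of 40.3 stands upstream.

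The strongest pqn promoter candidates of the pooled list outside the main list were pqn-94 with 68.4 at -249 bp and pqn-53 with 66.4 at -225 bp. Next was pqn-74, a chitin-binding protein gene, with 60.2 at -41 bp. All 3 ranked higher in replicate 2, at the 95.2, 95.7 and 96.0 percentiles, than in replicate 1, at 85.1, 68.6 and 72.5. At the other end of the pqn promoter candidates stood pqn-84, with 14.5, and pqn-10, with 18.7.

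No idpa or idpb gene had a promoter in the top 10% of all genes in any of the 3 ranked lists. The strongest idpb gene, idpb-4, had 32.0 in the pooled list at -958 bp, 31.9 in replicate 1 and 12.9 in replicate 2. The idpb-2 gene had 26.0 in the pooled list and 24.7 in replicate 1, and idpb-3 had 6.78 in replicate 2 alone. No idpa promoter signal exceeded 19.1, the replicate 1 value of idpa-3. The idpa-2 promoter had 15.2 in the pooled list, and idpa-1 had 9.24 in replicate 2 alone. The 3 idpa genes and 5 idpb genes are few, so their medians rest on single genes.

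No candidate promoter summit was found in any of the 3 ranked lists for 23 members (27.1%), beside 33.1% of all genes. They include abu-2, abu-5, abu-7, abu-9, abu-11, idpb-1, idpb-5 and 16 pqn genes, namely pqn-8, pqn-16, pqn-24, pqn-25, pqn-29, pqn-31, pqn-32, pqn-37, pqn-57, pqn-62, pqn-65, pqn-68, pqn-75, pqn-76, pqn-78 and pqn-79. Of the 23, 3 (pqn-32, pqn-65 and pqn-75) had a candidate over the gene. Of these 23, the 4 genes abu-5, pqn-76, pqn-78 and pqn-79 are 1076-bp copies on chromosome IV that are 99.2% to 99.9% identical to each other. Between 2.32% and 8.74% of the 31-base words of these 4 genes occur once in the nuclear genome, so most short stretches of them cannot be assigned to 1 copy. In their promoter windows the share is 24.7% to 60.8%, and for abu-9 it is 61.4%. For pqn-57 and abu-7, also among the 23, the window share is 69.4% and 71.8%. Over the 14 abu genes the median is 90.2% in the window and 62.1% over the gene. The median over all genes is 100% for both. The abu-11 window, also without a candidate, is 100% unique by this measure. The part of repeated sequence in the absent candidates and in the abu counts and ranks was not tested.

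Motifs were searched in 250 bp before to 50 bp after each start, on both strands. TGTTTGC, a form of the forkhead consensus TRTTKRY, was present in 21 of 85 members (24.7%), beside 7.42% of all genes. The count was 6 of 14 in abu, 12 of 56 in pqn, and 1 each in idpa, idpb and idpc. The other forms were near the share of all genes: TGTTTAC in 4.71% beside 4.77%, TATTTAC in 5.88% beside 6.74% and TATTTGC in 5.88% beside 6.11%. The whole consensus was in 76.5% beside 66.8%. Of the 12 pqn genes with TGTTTGC, pqn-42, pqn-51 and pqn-68 encode proteins with 4.10%, 1.41% and 0.667% cysteine. The rest of the 12 encode proteins with 13.1% to 16.5% cysteine, beside a median of 13.3% in abu. The pqn-2, pqn-13 and pqn-25 proteins hold 12.8% to 16.2% cysteine, and their promoters lack TGTTTGC. Near-identical copies repeat the match, so the 21 genes are not separate cases. A match is a description of sequence and not a site of binding.

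Matches in 4 abu promoters and 1 idpb promoter are shown because abu holds the highest share of the 5 families (42.9%). Each line holds 41 bases on the strand of the match, with TGTTTGC in capitals, which the idpb-5 line holds at 2 places. They lie at V:10381936-10381976 (abu-1, minus strand), V:2274688-2274728 (abu-4, plus strand), IV:15590504-15590544 (abu-5, plus strand), X:8321935-8321975 (abu-9, plus strand) and V:11839411-11839451 (idpb-5, minus strand).
abu-1: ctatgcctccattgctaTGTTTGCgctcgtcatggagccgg
abu-4: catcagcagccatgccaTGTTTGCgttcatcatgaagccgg
abu-5: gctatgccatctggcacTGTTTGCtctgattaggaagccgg
abu-9: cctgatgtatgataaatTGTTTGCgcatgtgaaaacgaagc
idpb-5: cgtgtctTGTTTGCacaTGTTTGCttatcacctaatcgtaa

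Of the 41 bases, 7 are shared by the choice of the match. Pairs of the 5 stretches shared between 14 (abu-1 with idpb-5, and abu-5 with idpb-5) and 28 bases (abu-1 with abu-4). The 23 matches in members lay between -244 and 43 bp, with a median of -137 bp. The 21 members with TGTTTGC had a median percentile of 24.0 in the pooled list, against 67.1 for the 64 without. Over all genes the medians were 50.9 with the match and 49.9 without, and main-list promoter summits were present in 9.51% and 6.97%. Of the 23 members with no candidate promoter summit, 10 held the match (43.5%), and of the 62 with a candidate there, 11 did (17.7%). Over all genes those shares were 6.96% and 7.65%. The median of 24.0 is the tied rank of genes with no candidate. Most of the 10 have promoter windows with repeated sequence. Unique 31-base words make up 24.7% in pqn-78 and pqn-79, 51.3% in pqn-76 and 60.8% in abu-5. They make up 61.4% in abu-9, 69.4% in pqn-57 and 71.8% in abu-7. The windows of pqn-16 and pqn-68 are 100% unique, and that of idpb-5 is 99.7% unique. The part of repeated sequence in these ranks was not tested. Only pqn-51 had both the match and a main-list promoter summit. Its match lies at -244 bp and its summit at -90 bp. Of the 31-base words in the 41 bases around the match, 0% occur once in the nuclear genome. The share is 62.6% in its promoter window and 100% in the 101 bases at its summit.

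Other genes of the pharynx and of the unfolded protein response were read in the same windows. The 10 pharyngeal genes mix cuticle and lumen genes, such as the chitin synthase chs-2, with others. These include the muscle myosin myo-2 and the transcription factors pha-4, ceh-22 and hlh-6. Of the 10 genes, 0 had a main-list promoter summit, beside 7.15% of all genes. Their median percentiles were 74.7 in the pooled list, 74.3 in replicate 1 and 68.8 in replicate 2. Within the list, chs-2 had no candidate in any ranked list, and pgp-14 had 43.1 in the pooled list, 36.5 in replicate 1 and 17.8 in replicate 2.

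Of 13 genes of the unfolded protein response, to which the abu name refers, 7 had a main-list promoter summit, beside 7.15% of all genes. The signals were 384 at hsp-3, a BiP chaperone of the endoplasmic reticulum, 238 at enpl-1, 174 at crt-1, 167 at xbp-1, 166 at pdi-2, 131 at atf-6 and 71.8 at ire-1. The genes xbp-1, atf-6 and ire-1 encode a transcription factor or sensor of the response, and the others encode chaperones or folding enzymes. Those without included pek-1, dnj-7, pdi-6 and hsp-4, of which hsp-4 had a replicate 1 summit of 54.2. In replicate 2 atf-6 and ire-1 had no promoter candidate, and crt-1 had no thresholded promoter summit in replicate 1.

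The tissue markers differed among themselves. The pharynx marker pha-4 had promoter candidates of 74.7 in the pooled list, 42.0 in replicate 1 and 27.5 in replicate 2. Over the gene, beyond the promoter window, pha-4 had a main-list summit of 67.1 at 722 bp. The thresholded list of replicate 1 held a summit of 61.3 over pha-4. The marker ceh-22 had a promoter candidate of 29.0 in replicate 1 alone, and myo-2 had 1 of 40.9 in replicate 2 alone. The intestine marker vit-6 had a main-list promoter summit of 93.5, inside the gene at 294 bp and in neither replicate thresholded list. The marker elt-2 had a candidate of 48.5 in the pooled list. The body wall muscle markers myo-3 and unc-54 had no promoter candidate.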

How the data were processed

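The authors deposited ChIP-seq peak lists on ce11, per the labels, from 2 biological replicates. The peak caller and aligner are not given in the sources used here. Each peak has a deposited signal value, whose scale is set per list, and the ranked lists carry the −log10 of the irreproducible discovery rate (IDR), deposited by the authors. In the thresholded lists no nuclear peak fell below a −log10 IDR of 2. Read numbers were not given, so depth is unknown. Peaks on the mitochondrial genome were left out. Summits were assigned to Ensembl release 115 genes, and percentiles are mid-ranks over 19973 genes. The assignment was tested on simulated data. Sequence was read from RefSeq WBcel235 with Python 3.11.15, numpy 2.4.6, scipy 1.17.1 and edlib 1.3.9.post1. Members and lists were chosen with earlier results of these data known. Named genes are those with a thresholded summit, the 4 strongest and 4 weakest per family in the pooled ranked list, and those without a candidate there; other members are named where a list is given in full. No test was made over members, so all counts are descriptions beside those of all genes.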

Additional observations from a re-analysis of the deposited data

How the results depend on the processing

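The count of members with a promoter summit, 7 in the main list, was 3 in the stricter list and 4 with a window of 500 bp upstream to 200 bp downstream, and 6 without either replicate. The narrower window gave 4.71% beside 5.23% of all genes. A looser IDR threshold gave 10 (11.8%, beside 10.7%), any transcript start 8 (9.41%, beside 7.93%) and the nearest start only 6 (7.06%, beside 5.65%). The count stayed 7 with a wider window (beside 9.55%), any overlap of the peak (beside 7.76%), clusters counted once and peaks near small noncoding RNA genes left out (beside 6.44%). For abu the looser threshold gave 1, abu-8. For pqn the stricter list gave 3, and leaving out a replicate gave 4 to 6. For idpc the stricter list and the narrower window each gave 0, and leaving out a replicate gave 0 to 2. Summits over the gene fell to 2 in the stricter list and ranged from 2 to 8 without a replicate. The median percentile was 29.0 with the narrower window and 50.6 to 66.1 without a replicate. The causes of all these changes were not tested. No paired analysis was possible because both replicates belong to 1 group. Depth is unknown, so an absent candidate does not show absent binding.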
